A study of Homo sapiens with 7 samples.

Results

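BNIP3 and the other 9 genes described here, BNIP3L, HIF1A, EPAS1, CA9, VEGFA, SLC2A1, ADM, NDRG1 and EGLN3, were chosen by a measured value, the level of BNIP3 on these arrays, which was already known to be missing in the cell line L-540 and raised the question whether other hypoxia response genes follow it. The members were read from all probe sets that the array annotation gave to a member alone. These were 18 of 54675 probe sets and covered 9 of the 10 members, in a table of 19775 genes. The annotation used here gave no probe set to CA9 alone, and this carbonic anhydrase of the cell surface was not analysed here. That BNIP3 level is therefore given as a description.

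The data were expression levels of L-540 and 6 more established Hodgkin lymphoma (HL) lines, namely L-428, L-1236, HDLM-2, KM-H2, U-HO1 and SUP-HD1, each measured on 1 Affymetrix HG U133 Plus 2.0 array from total RNA. The labels give no treatment, no altered genotype and no oxygen condition, and every line forms a group of its own, with 1 array and no replicate. The arrays were made in 2 laboratories, the sources do not say which line was measured where, and differences between lines and between laboratories cannot be told apart.

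Cells sense oxygen through prolyl hydroxylases of the EGLN family, which mark the alpha subunits of the hypoxia-inducible factor (HIF), HIF1A and EPAS1, for destruction by the VHL ubiquitin ligase while oxygen is present. At low oxygen the alpha subunits last, pair with ARNT and switch on genes for glucose uptake, glycolysis, blood vessel growth and the removal of mitochondria. HIF is controlled largely at the protein level, so the mRNA of an alpha subunit is not a measure of its activity. BNIP3 and its relative BNIP3L are HIF targets whose products sit in the outer mitochondrial membrane and recruit the autophagy machinery, a process called mitophagy. In HL the malignant Hodgkin and Reed-Sternberg cells are few among many reactive cells, which is why cell lines serve as models.

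The core of the DNA element that HIF binds is ACGTG or GCGTG, and on the other strand CACGT or CACGC. The start region of BNIP3 is shown because its level is what set L-540 apart, that of AK4 because AK4 was low in L-540 as BNIP3 was, and those of PLOD2 and SLC2A1 because the first was higher in L-540 and the second was a member that was not lower there. Each is the stretch of 300 bases from 250 before to 50 after a start site in RefSeq on GRCh38.p14, 5′ to 3′ along the gene, with matches to these letters in capitals. AK4 has several annotated starts, and the most upstream is shown. The windows are chr10:131981874-131982173 on the minus strand for BNIP3, chr1:65147302-65147601 on the plus strand for AK4, chr3:146161135-146161434 on the minus strand for PLOD2 and chr1:42958819-42959118 on the minus strand for SLC2A1.
BNIP3: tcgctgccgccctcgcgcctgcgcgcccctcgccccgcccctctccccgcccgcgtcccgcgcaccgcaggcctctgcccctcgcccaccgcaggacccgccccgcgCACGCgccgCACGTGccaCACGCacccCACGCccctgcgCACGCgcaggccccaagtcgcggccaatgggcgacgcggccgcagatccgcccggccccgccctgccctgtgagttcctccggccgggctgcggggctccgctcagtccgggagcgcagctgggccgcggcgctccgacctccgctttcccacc
AK4: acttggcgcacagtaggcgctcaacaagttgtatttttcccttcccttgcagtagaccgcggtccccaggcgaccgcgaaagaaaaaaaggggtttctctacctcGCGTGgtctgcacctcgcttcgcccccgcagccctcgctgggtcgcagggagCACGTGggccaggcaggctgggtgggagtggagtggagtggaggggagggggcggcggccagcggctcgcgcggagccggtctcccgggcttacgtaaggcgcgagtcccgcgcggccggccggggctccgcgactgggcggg
PLOD2: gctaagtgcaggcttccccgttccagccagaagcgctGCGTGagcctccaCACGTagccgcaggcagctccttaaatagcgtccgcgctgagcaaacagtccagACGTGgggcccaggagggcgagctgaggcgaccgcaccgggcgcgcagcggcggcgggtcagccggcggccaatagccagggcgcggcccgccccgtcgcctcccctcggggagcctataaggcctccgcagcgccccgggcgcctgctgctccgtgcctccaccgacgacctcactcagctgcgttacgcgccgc
SLC2A1: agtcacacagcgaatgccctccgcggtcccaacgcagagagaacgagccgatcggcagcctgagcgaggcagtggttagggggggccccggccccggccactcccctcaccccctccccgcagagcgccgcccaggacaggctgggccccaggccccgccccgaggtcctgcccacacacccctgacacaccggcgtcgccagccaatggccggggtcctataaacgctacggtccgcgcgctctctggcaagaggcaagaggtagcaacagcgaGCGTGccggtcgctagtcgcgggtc
The BNIP3 window held 6 matches, beginning at positions -143, -134, -133, -125, -116 and -104 before the start. The pair at -134 and -133 overlap as CACGTG, which is also the core of the E-box that MYC and other factors bind. AK4 and PLOD2 held 3 matches each and SLC2A1 held 1, at position 26 past the start. Of all 35116 windows of this length, 48.4% held at least 1 match and 0.923% held at least as many as BNIP3. A match describes the letters and is not a bound site. RefSeq windows were matched for 7 of the 10 members, and 6 of these 7 held a match in at least 1 window. BNIP3L, VEGFA and NDRG1 were not among the matched.

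Array values carry no call of presence, so a background level was set on each array from genes that these cells should not use, the olfactory receptors. It lay at 4.86 in HDLM-2, 4.84 in KM-H2, 5.59 in L-1236, 4.75 in L-428, 4.51 in L-540, 4.49 in SUP-HD1 and 4.59 in U-HO1 on the log2 scale of the deposited levels. The L-1236 array stood apart by this high background and had the fewest genes above it, 8609, against 10554 to 11636 in the other lines. The U-HO1 array stood apart by its 18S ribosomal RNA control, at 11.12 against 5.23 to 7.06, and by an excess of 2.11 of the ACTB 3′ over the 5′ control, against 0.06 to 0.54. Lines were checked against Hodgkin and Reed-Sternberg cell markers, of which 5 to 7 of 7 were above background in each line. TNFRSF8, the CD30 antigen, was below background in SUP-HD1, at 4.36. Of 7 measured B-cell markers, CD79B and MS4A1 were below background in all 7 lines, while PAX5 and EBF1 were above it in 6 lines and CD22 in 5, and 2 to 5 were above it in each line, 4 of them in L-540. L-540 also had 5 of 7 T- and NK-cell markers above background, with GZMB at 12.01 and NKG7 at 11.22. Their part in the results below was not tested.

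BNIP3 was strongly expressed in 6 HL cell lines and below background in L-540. At the probe set with the higher mean, 201849_at, its log2 level was 11.23 in HDLM-2, 10.97 in KM-H2, 10.62 in L-1236, 11.53 in L-428, 3.20 in L-540, 9.76 in SUP-HD1 and 10.30 in U-HO1. L-540 thus lay 7.60 below the median of the other 6 lines, and at least 6.28 below it if L-540 is placed at its own background. The second BNIP3 probe set, 201848_s_at, gave 10.36, 9.75, 10.45, 10.61, 2.87, 9.13 and 8.76 in the same order of lines. L-540 was the lowest line at both probe sets, by a wide margin, and the remaining lines covered a range of 1.77 at the first and 1.85 at the second. The technical spread was taken from probe sets of the same gene, whose SD around the gene's own pattern was 0.453, which makes the SD of a difference between 2 lines 0.641. No 2 neighbours in the order of the 6 expressing lines, from L-428 down to SUP-HD1, differed by more than 0.641. Taken line by line, the SD was 0.28 in HDLM-2, 0.33 in KM-H2, 0.30 in L-428, 0.32 in L-540 and 0.31 in SUP-HD1. It was 0.50 in L-1236 and 0.71 in U-HO1, which raise the pooled value. The single cut-off is therefore wide for steps between the other lines and narrow for steps next to U-HO1.

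The gap between L-540 and the next line, 6.56, made BNIP3 the gene with the deepest such loss among the 14495 genes that exceeded background somewhere. That value had chosen the set, so the rank is a description and nothing is read from it. In L-540, 12 genes, BNIP3 among them, lay at least 4 below every other line, 0.0828% of the genes tested. The other lines had between 1 and 11 such genes. These 12 included AK4, a mitochondrial adenylate kinase, and PFKP, the platelet-type phosphofructokinase of glycolysis, both listed as HIF targets or glycolysis genes. No other member was in this group.

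**Figure D1:**
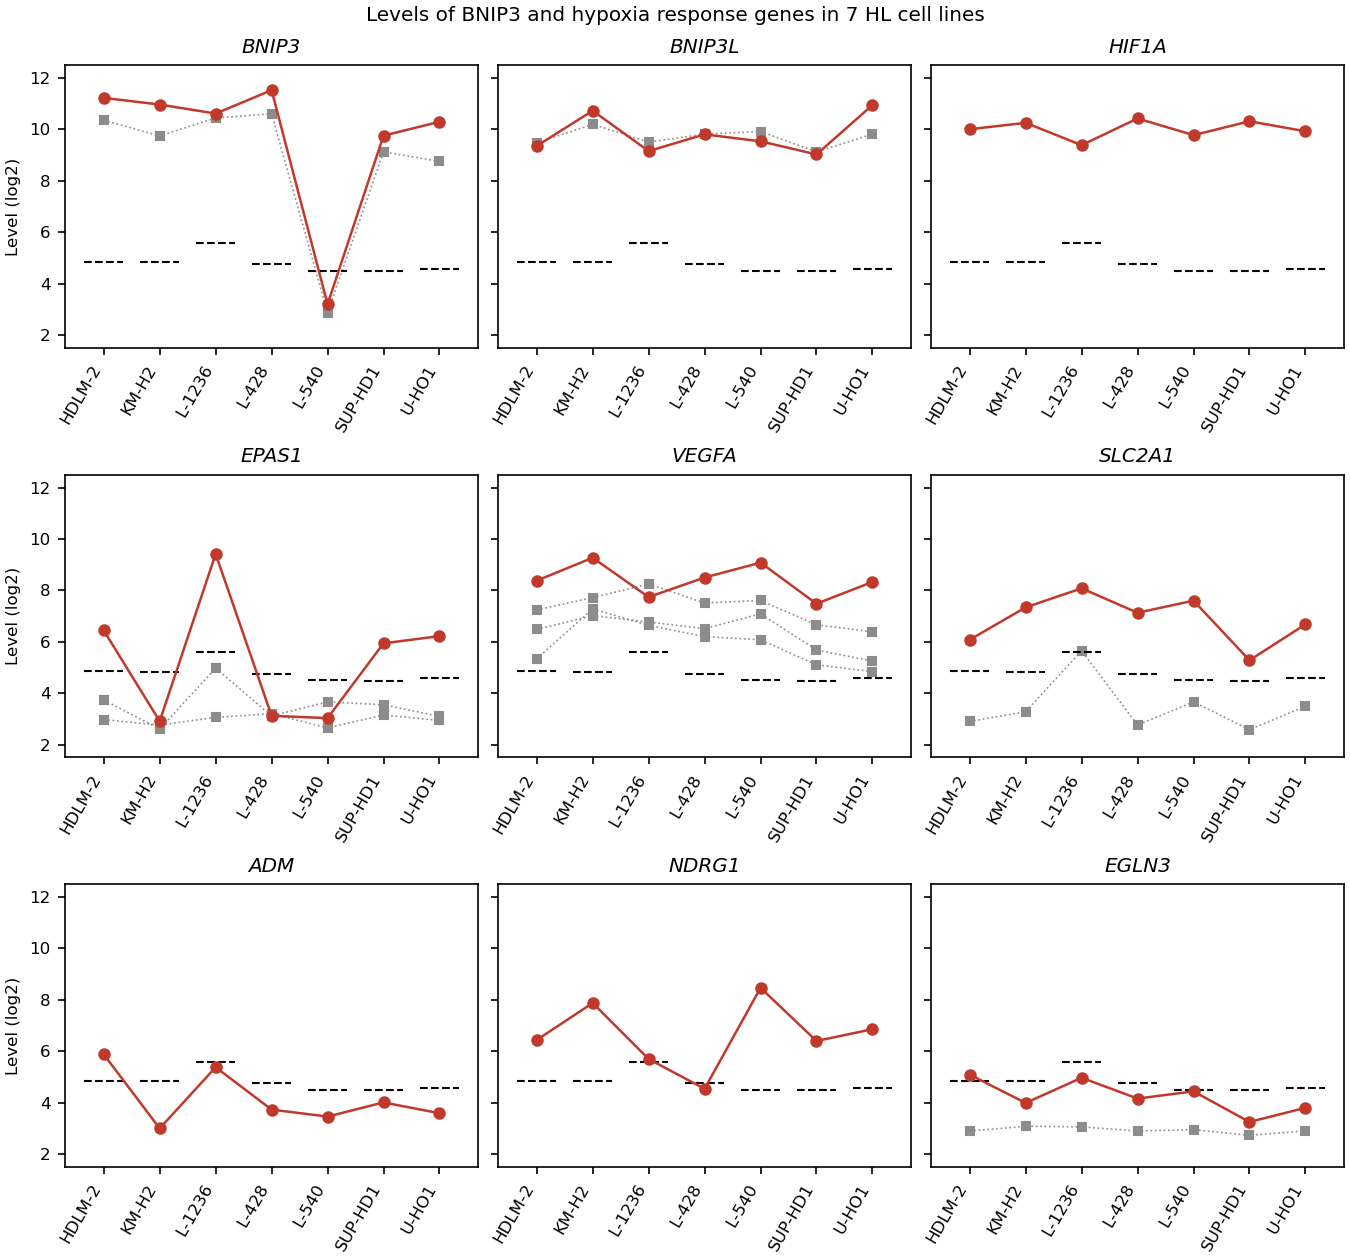
Log2 levels of 9 hypoxia response genes (vertical axes) in 7 HL cell lines (horizontal axes), 1 array per line. Red circles are the probe set used for the gene, grey squares its other probe sets, and dashed bars the background of each array. BNIP3 lies below the bar in L-540 at both probe sets, while BNIP3L and HIF1A stay far above it in all lines.

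BNIP3L did not share the pattern. This relative of BNIP3, also called NIX, is the mitophagy receptor that clears mitochondria from maturing red cells. Its level was 9.36 in HDLM-2, 10.73 in KM-H2, 9.16 in L-1236, 9.81 in L-428, 9.54 in L-540, 9.03 in SUP-HD1 and 10.95 in U-HO1. U-HO1 and KM-H2 were high, the other 5 lines followed 0.92 lower without a step beyond the technical spread, and L-540 sat among these 5. At the second probe set, 221479_s_at, the lines ran from 9.13 in SUP-HD1 to 10.20 in KM-H2, with L-540 at 9.92 and U-HO1 at 9.82. KM-H2 was thus high and SUP-HD1 lowest at both probe sets, whereas the high place of U-HO1 was seen at 221478_at alone.

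The alpha subunits of HIF differed from each other in how they varied. HIF1A was even, at 10.01 in HDLM-2, 10.26 in KM-H2, 9.39 in L-1236, 10.43 in L-428, 9.78 in L-540, 10.32 in SUP-HD1 and 9.93 in U-HO1. Its range was 1.04, no neighbouring lines differed beyond the technical spread, and L-540 lay 0.36 below the median of the others. EPAS1, the second alpha subunit, also known as HIF2A, was read at 6.44 in HDLM-2, 2.91 in KM-H2, 9.42 in L-1236, 3.12 in L-428, 3.03 in L-540, 5.94 in SUP-HD1 and 6.22 in U-HO1. These levels formed 3 groups, with L-1236 on top, HDLM-2, U-HO1 and SUP-HD1 together 2.98 lower, and L-428, L-540 and KM-H2 below background.

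L-540 therefore lay 3.05 below the median of the other lines for EPAS1, but KM-H2 and L-428, which expressed BNIP3 well, were as low. The other 2 EPAS1 probe sets were below background in all lines and show no order. ARNT, the partner of both subunits, was 6.33 in L-540 against 5.34 to 6.80 in the other lines at the probe set used. L-540 was the highest line at the ARNT probe sets 218222_x_at, 230619_at and 231016_s_at, with 6.92, 6.74 and 6.22. The next line there had 6.80, 6.61 and 6.11.

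EGLN3, the prolyl hydroxylase that is itself induced by HIF, was above background in HDLM-2 alone, at 5.09. The other lines had 3.99 in KM-H2, 4.97 in L-1236, 4.16 in L-428, 4.44 in L-540, 3.25 in SUP-HD1 and 3.80 in U-HO1, all below the level set for their array. No order among them can be read, and the second EGLN3 probe set, at 2.73 to 3.08, was below background throughout.

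Of the classical targets, SLC2A1 and VEGFA were measurable in every line and were not low in L-540. SLC2A1, the glucose transporter GLUT1, stood at 6.08 in HDLM-2, 7.34 in KM-H2, 8.08 in L-1236, 7.13 in L-428, 7.60 in L-540, 5.28 in SUP-HD1 and 6.68 in U-HO1. L-1236 was highest and L-540 next, 0.70 above the median of its other lines, while SUP-HD1 was lowest by 0.80, a gap beyond the technical spread. A second SLC2A1 probe set, 201249_at, exceeded background in L-1236 alone, at 5.65 against a background of 5.59.

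VEGFA, the growth factor for blood vessels, stood at 8.38 in HDLM-2, 9.27 in KM-H2, 7.74 in L-1236, 8.5 in L-428, 9.08 in L-540, 7.48 in SUP-HD1 and 8.33 in U-HO1. KM-H2 and L-540 were the upper lines and SUP-HD1 the lowest, but no step between neighbours passed the pooled technical spread. That cut-off is wide for the step of 0.58 from L-540 to L-428. All 4 VEGFA probe sets were above background in all 7 lines, and at each of them L-540 lay above the median of the others, by 0.24 to 0.72. The lowest line was U-HO1 rather than SUP-HD1 at the remaining 3 VEGFA probe sets, so the foot of this order was not settled.

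NDRG1 was high in L-540, where BNIP3 was low. This gene responds to hypoxia and other stress and has been tied to cell differentiation. It was measured by a single probe set at 6.44 in HDLM-2, 7.88 in KM-H2, 5.70 in L-1236, 4.54 in L-428, 8.47 in L-540, 6.40 in SUP-HD1 and 6.86 in U-HO1. L-540 was the highest line, 2.05 above the median of the others. Its step of 0.59 over KM-H2 was within the pooled technical spread, which is wide for this pair of lines. L-428, the line with the highest BNIP3, had the lowest NDRG1 and was below background.

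ADM encodes adrenomedullin, a peptide that widens blood vessels. Its single probe set gave 5.88 in HDLM-2, 3.0 in KM-H2, 5.38 in L-1236, 3.73 in L-428, 3.46 in L-540, 4.01 in SUP-HD1 and 3.59 in U-HO1. HDLM-2 alone was above background, as for EGLN3, so neither gene can show whether L-540 was lower.

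**Figure D2:**
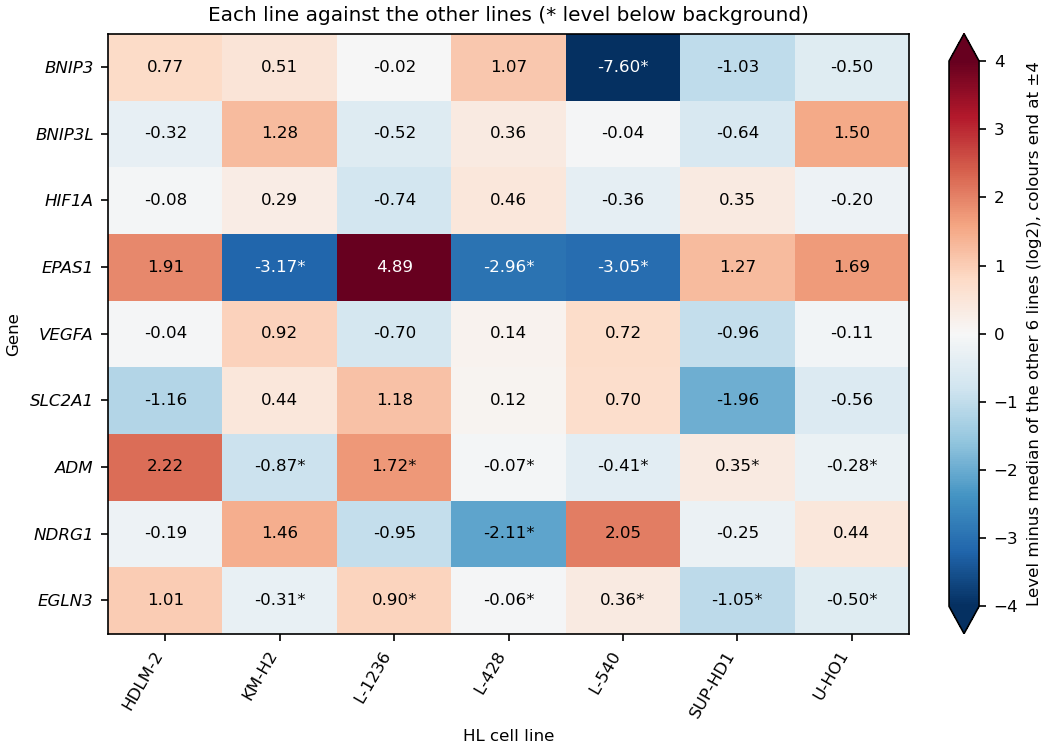
Level of each member in each HL cell line minus the median of the other 6 lines (log2, colour and printed number; colours end at 4 either way), with an asterisk where the level is below background. The column of L-540 holds -7.60 for BNIP3, -3.05 for EPAS1 and 2.05 for NDRG1, and its other 6 entries lie between -0.41 and 0.72.

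Of the members other than BNIP3 that could be called lower in L-540, EPAS1 alone was. A gene was called lower in a line when it lay at least 1 below the median of the other 6 lines and at least 4 of these were above background, and higher when it lay at least 1 above that median and above its own background. In L-540, BNIP3 and EPAS1 were called lower, 2 of 9 measured members against 6.68% of all genes tested, and NDRG1 was called higher, 1 of 9 against 10.4%. Among the 8 members besides BNIP3 this leaves 1 lower and 1 higher, with a median difference of 0.16 beside 0.06 over all genes tested. ADM and EGLN3 were above background in HDLM-2 alone and could not be called lower, so the lower call was open to 6 of these 8, BNIP3L, HIF1A, EPAS1, VEGFA, SLC2A1 and NDRG1, whose median difference was 0.32. EPAS1 just met the rule, with exactly 4 other lines above background, and was no longer called when HDLM-2, L-1236, SUP-HD1 or U-HO1 was left out or when all its probe sets were averaged. The rule had used the BNIP3 value, so nothing is read from its call.

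The other lines gave similar counts for the 9 members. HDLM-2 had 1 lower (5.86% of all genes) and 3 higher (12%), namely EPAS1, ADM and EGLN3. KM-H2 had 1 lower (7.7%) and 2 higher (12.6%), the latter BNIP3L and NDRG1. L-1236 had 0 lower, although 24.2% of all genes were called lower on this array of high background, and 2 higher (9.73%), EPAS1 and SLC2A1.

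L-428 had 2 members lower (6.05%), EPAS1 and NDRG1, and 1 higher (9.89%), BNIP3, whose call there follows in part from the low L-540 value. SUP-HD1 had 2 lower (6.68%), BNIP3 and SLC2A1, and 1 higher (11.5%), EPAS1. U-HO1 had 0 lower (8.87%) and 2 higher (15%), BNIP3L and EPAS1. No test was made of these counts, which rest on 9 genes. Over all lines, 5 of 9 members had a range of at least 2, beside 50.2% of all genes, and 4 of 9, BNIP3L, HIF1A, VEGFA and SLC2A1, were above background in every line, beside 47.2%.

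L-540 was the lowest of the 7 lines for 0 of the 8 members besides BNIP3, beside 9.6% of all genes, and so few genes are no result. BNIP3 is left out here because its level in L-540 had chosen the set. SUP-HD1 was the lowest for 4 of these 8, BNIP3L, VEGFA, SLC2A1 and EGLN3, beside 11.1% of all genes, and EGLN3 was below background there. BNIP3L was lowest by 0.13 alone, and U-HO1 was lowest at the remaining 3 VEGFA probe sets. Of these genes, SLC2A1 alone was lowest by a step beyond the technical spread, 0.80. The median difference of SUP-HD1 over the 8 members was -0.45, against 0.07 over all genes, and that of the other lines between -0.16 and 0.36.

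The 4 members above background in every line allow a description of likeness across lines. Over the 6 lines without L-540, whose BNIP3 value had chosen the set, Pearson's r with BNIP3 was 0.13 for BNIP3L, 0.16 for HIF1A, 0.63 for VEGFA and 0.45 for SLC2A1. With L-540 included, over 7 lines, it was 0.17, 0.32, -0.34 and -0.24, so the sign for VEGFA and SLC2A1 was set by that line.

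The wider hypoxia programme was read from lists of glycolysis genes and other HIF targets, which together had 57 tested genes and no member among them. In L-540, 6 of 57 were called lower (10.5%) and 9 higher (15.8%), beside the 6.68% and 10.4% of all genes, and their median difference was 0.20 against 0.06. The share of all genes also counts genes above background in too few lines to be called lower. In L-540, 21 of 21 measured glycolysis genes and 31 of 38 other targets were above background. No excess of lower calls is therefore read from these shares, and the same limit holds for the lists below. The genes called lower were PFKP, ALDOC, PDK3, AK4, RORA and GBE1. Those called higher were SLC2A3, GPI, ANKRD37, PLOD2, BHLHE40, IGFBP3, PLIN2, FAM162A and HMOX1. Without the L-1236 and U-HO1 arrays, which stood apart, the counts were 7 lower and 12 higher, beside 5.54% and 9.98% of all genes. When a difference of 2 was asked for, they were 4 lower and 2 higher, beside 2.44% and 3.04%. The lists therefore held genes that were much lower and genes that were much higher in L-540.

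PFKP came closest to BNIP3 among the glycolysis genes. Its level was 10.13 in HDLM-2, 10.53 in KM-H2, 10.29 in L-1236, 10.36 in L-428, 4.58 in L-540, 9.45 in SUP-HD1 and 9.26 in U-HO1. L-540 was just above its background of 4.51 and 5.63 below the median of the others. At the second PFKP probe set, 240202_x_at, L-540 had 4.37 and U-HO1 was lower still, at 3.06.

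AK4 was 10.21 in HDLM-2, 9.86 in KM-H2, 9.40 in L-1236, 9.88 in L-428, 3.38 in L-540, 8.77 in SUP-HD1 and 8.18 in U-HO1. L-540 was the lowest line and below background at all 4 AK4 probe sets, with differences from the median of the others of -3.72 to -6.25. Of the other genes called lower, ALDOC, the aldolase of brain and nerve, was 5.14 in L-540 but 5.15 in L-428 and 3.92 in SUP-HD1, so 3 lines were low. PDK3, a kinase that keeps pyruvate out of the mitochondrion, was 7.40 in L-540 against 8.07 to 10.28. L-540 lay below the median of the others at all PDK3 probe sets, with differences of -0.46 to -2.25. It was not the lowest line at 230085_at, with 6.02 against 5.95 in U-HO1, nor at 206347_at. GBE1 was 8.84 in L-540 but lower in L-1236, at 8.08, and U-HO1, at 8.29. RORA, a nuclear receptor, was 2.41 in L-540 and also below background in L-1236, at 3.06, and U-HO1, at 4.26.

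PLOD2, a lysyl hydroxylase that modifies collagen, had the largest positive difference of the lists. It was 2.97 in HDLM-2, 7.63 in KM-H2, 7.73 in L-1236, 3.36 in L-428, 10.29 in L-540, 2.97 in SUP-HD1 and 2.64 in U-HO1. L-540 was the highest line at both PLOD2 probe sets, and 4 lines were below background at both, so its difference of 7.12 is against a median that lies below background. PLIN2, which coats lipid droplets, was 10.04 in L-540, below the 10.76 of SUP-HD1 and above the other lines, at 3.0 to 9.53. SLC2A3, the glucose transporter GLUT3, was 10.30 in L-540, level with the 10.31 of L-1236 and above the 7.32 to 9.66 of the rest.

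Several textbook HIF targets were close to the other lines in L-540 at the probe set used. PGK1, of glycolysis, was 12.22 against 11.73 to 12.82, and LDHA, which makes lactate, was 13.03 against 12.99 to 13.33. PDK1 was 8.66 against 7.72 to 10.05, DDIT4, an inhibitor of mTOR signalling, 7.01 against 5.65 to 7.59, and KDM3A, a histone demethylase, 9.12 against 8.77 to 10.02. Not every probe set gave this. L-540 was lowest at 227068_at of PGK1, 1.06 below the median of the others, and highest at 239798_at of PDK1, 1.68 above it. P4HA1, a collagen prolyl hydroxylase, was lowest in L-540, at 9.66, with L-1236 next at 9.85.

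**Figure D3:**
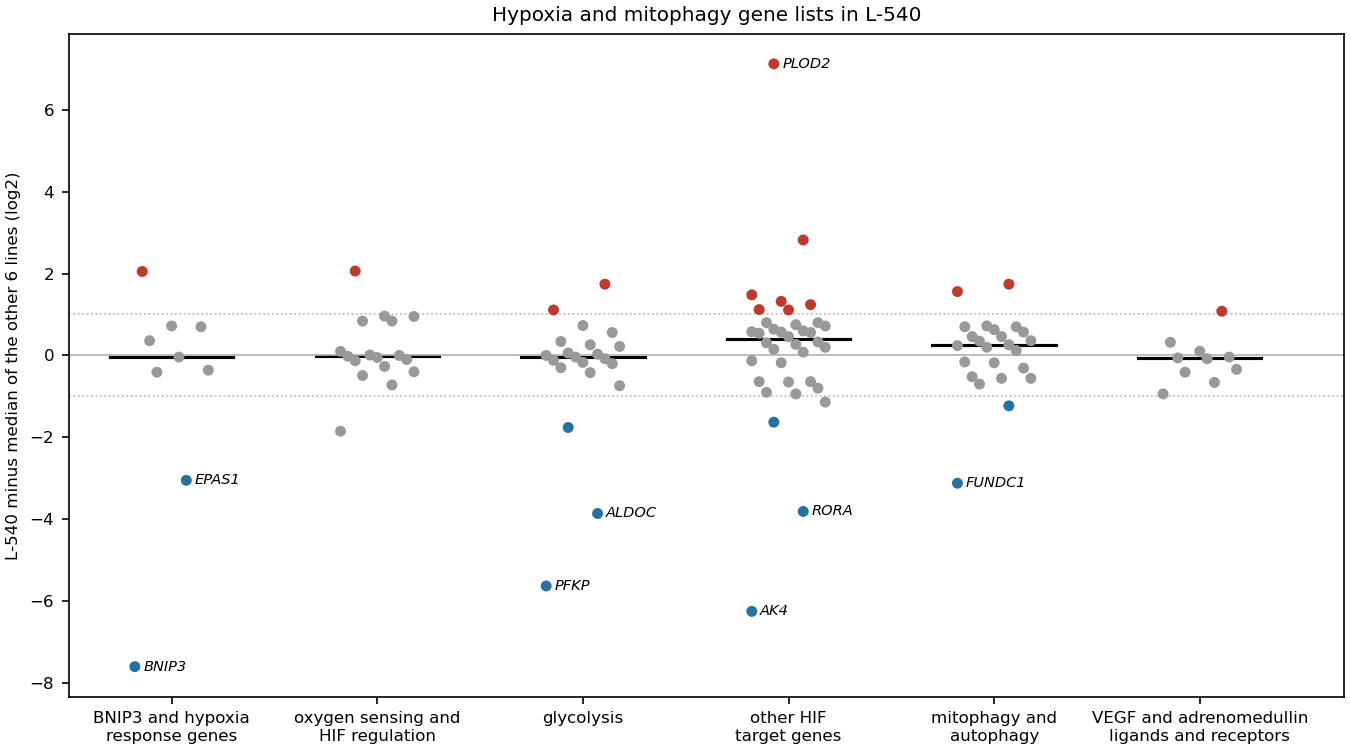
L-540 level minus the median of the other 6 lines (log2, vertical axis) for the tested genes of 6 lists (horizontal axis), where each point is a gene, blue called lower, red called higher and grey neither. Black bars are list medians and dotted lines mark a difference of 1 either way, and genes at 2.9 or more from 0 are named. BNIP3, AK4 and PFKP form the lower end, PLOD2 the upper end, and the medians lie between -0.08 and 0.39.

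Set beside the other lines, L-540 was not the line with the most HIF targets low. The count called lower of 57 was 14 in SUP-HD1, 24.6% beside 6.68% of all genes, and 19 in U-HO1, 33.3% beside 8.87%. It was 3 in HDLM-2, 5.26% beside 5.86%, 9 in KM-H2, 15.8% beside 7.7%, and 8 in L-428, 14.0% beside 6.05%. The 10 in L-1236, 17.5%, stood below the 24.2% of all genes on that array. In each line the share of all genes includes genes that could not be called lower, so it may be low for lists of expressed genes. The median difference was -0.55 in SUP-HD1 and -0.40 in U-HO1, and 0.08 to 0.26 in the other 5 lines. The U-HO1 count goes with the array that stood apart in its 18S and ACTB controls, and the part of this was not tested, while the SUP-HD1 array was within the other lines in both. BHLHE40, a repressor of transcription, was the listed gene most reduced in SUP-HD1, at 3.45 against 9.36 to 11.79 in the other lines, and was highest in L-540.

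Among genes that sense oxygen or control HIF, 0 of 17 tested were called lower in L-540, beside 6.68% of all genes, and 1 was called higher, beside 10.4%, with a median of -0.02. So few genes near the general shares are no result about this list. ARNT2, a relative of ARNT, was lowest in L-540, at 3.11 against 3.36 to 6.0, but exceeded background in 3 lines alone and could not be called. The called gene was CITED2, which competes with HIF for the coactivator p300, at 9.97 in L-540, between HDLM-2 at 10.33 and L-428 at 9.76 and above the 5.83 to 8.19 of the rest. At the CITED2 probe set 207980_s_at L-540 lay 2.51 above the median of the others, but at 227287_at, with 5.19, by 0.25 alone. EGLN1, the main prolyl hydroxylase, was lowest in L-540, at 8.26, with L-428 next at 8.57, and L-540 was not lowest at its other probe sets. VHL was 5.19 in L-540 against 3.25 to 6.40. L-1236 had 8 of the 17 called lower, 47.1% beside 24.2% of all genes on that array.

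The mitophagy receptors besides BNIP3 were split. FUNDC1, another receptor in the outer mitochondrial membrane, was 8.62 in HDLM-2, 7.68 in KM-H2, 7.44 in L-1236, 7.99 in L-428, 4.84 in L-540, 8.02 in SUP-HD1 and 7.92 in U-HO1. L-540 was low by 3.12 at this single probe set, and the other 6 lines lay between 7.44 and 8.62. BCL2L13 was also lowest in L-540, at 5.90 against 6.44 to 7.70, but not at its other probe sets. FKBP8 was highest there, at 7.56 against 4.45 to 7.14, and PHB2 was within the other lines, at 11.04.

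Over the whole list of mitophagy and autophagy genes, 2 of 24 were called lower, FUNDC1 and BCL2L13, and 2 higher, 8.33% each way and near the 6.68% and 10.4% of all genes, with a median of 0.25. The higher ones were OPTN and TAX1BP1, adaptors that link cargo to autophagosomes, at 9.96 and 11.25 in L-540. OPTN was nearly as high in HDLM-2, at 9.89, and its second probe set, 202073_at, put L-540 at 7.14, 0.08 from the median of the others, so its call rests on 1 probe set, whereas L-540 led for TAX1BP1 at all 3 of its probe sets. Among 10 tested ligands and receptors of the VEGF and adrenomedullin systems, 0 were called lower and 1 higher, too few to set beside those shares, and the latter was CALCRL, the adrenomedullin receptor, at 4.84 over a background of 4.51.

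Of the genes with a range of at least 2, 7276 besides BNIP3, the 5 whose levels ran most like BNIP3 were PFKP (r = 0.99 over 7 lines), AK4 (0.98), PAOX (0.98), LACTB (0.97) and SEPTIN11 (0.97). The low value of L-540 sets most of this likeness. Over the 6 lines without it, r was 0.77 for PFKP, 0.82 for AK4, 0.65 for PAOX, 0.30 for LACTB and 0.40 for SEPTIN11. How many of the 7276 genes reach such values over 6 lines was not counted. No remaining likeness to BNIP3 is therefore read from them. Spearman's rho over 7 lines was 0.93 for AK4 and 0.79 for PFKP.

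LACTB, a mitochondrial protein, had 3.03 in L-540 against 8.20 to 9.37 elsewhere and was lowest there at all 3 probe sets, as SEPTIN11, a cytoskeletal septin, was at all 4, with 3.73 against 8.08 to 9.64 at the first. PAOX, a polyamine oxidase, had 3.73 against 5.61 to 6.41, and L-540 was lowest at 2 of its 4 probe sets. The 5 genes most opposite to BNIP3, ANKRD18A, PROK2, LPL, LPA and COL21A1, each with r = -0.99, were above background in L-540 alone. They passed the range of 2 through this line, and it sets their r. Over the other 6 lines, where they were below background, r was -0.56 to -0.78 among values that have no readable order. LPL, lipoprotein lipase, reached 7.75 there against 2.97 to 4.01, and LPA, apolipoprotein(a), 7.58 against 2.52 to 3.06.

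**Figure D4:**
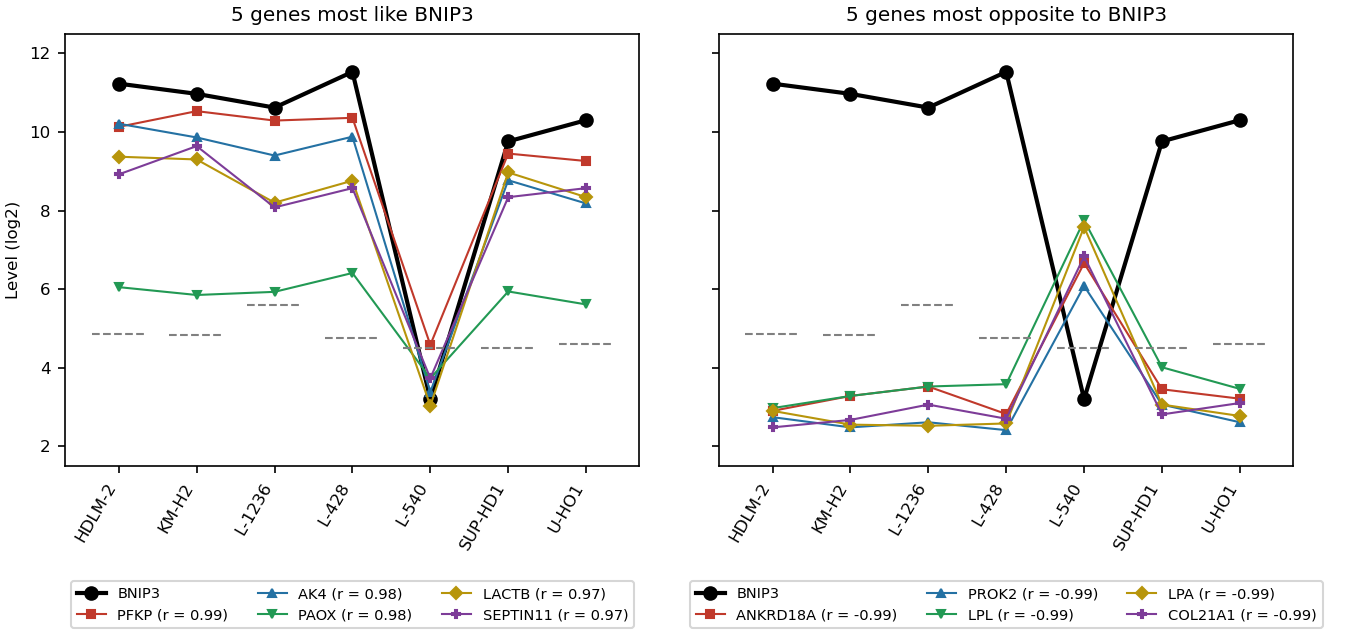
Log2 levels (vertical axes) in the 7 HL cell lines (horizontal axes) of BNIP3 in black with the 5 genes of highest correlation on the left and of lowest correlation on the right. Dashed bars are the background of each array. All 5 on the left have their lowest level in L-540, and all 5 on the right are above background in L-540 alone.

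Those genes next to BNIP3 on chromosome 10 that could be called lower did not share its low level in L-540. Of the 5 nearest measured genes on either side, 7 were above background in at least 1 line. Of these 7, 0 were called lower or higher, with a median difference of -0.16 beside 0.06 over all genes. C10orf143, STK32C and LRRC27 exceeded background in 2, 3 and 3 lines and could not be called lower. The lower call was open to GLRX3, PPP2R2D, DPYSL4 and PWWP2B alone. So few genes are no result beside the 6.68% of all genes called lower. Their L-540 differences were -0.62, 0.35, -0.16 and -0.02, against -7.60 for BNIP3. The nearest on either side were PPP2R2D, a regulatory subunit of a phosphatase, at 6.89 in L-540 against 6.04 to 7.51, and JAKMIP3, below background in all lines. GLRX3, a glutaredoxin, was lowest in L-540, at 8.98 against 9.25 to 10.44, and above background in all 7 lines. DPYSL4 was 5.03 against 4.60 to 5.74. PAOX lies on the same chromosome, 23 measured genes from BNIP3.

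**Figure D5:**
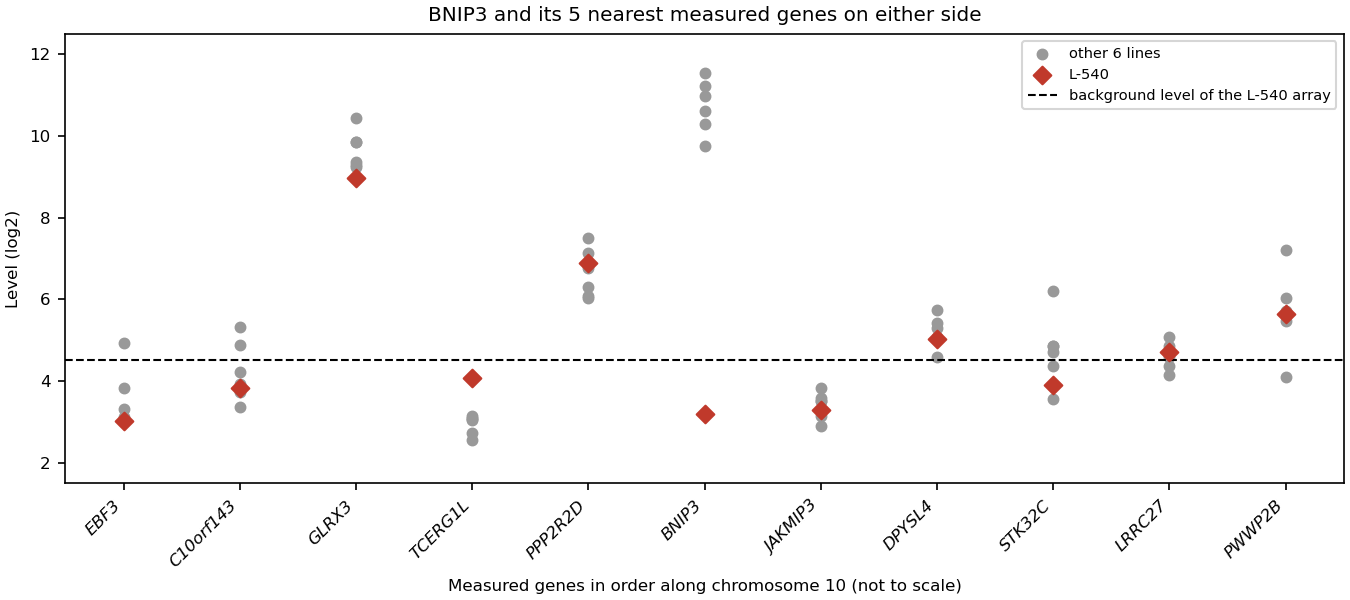
Log2 levels (vertical axis) of BNIP3 and its 5 nearest measured genes on either side, in order along chromosome 10 and not to scale (horizontal axis). Red diamonds are L-540, grey circles the other 6 lines, and the dashed line is the background of the L-540 array. L-540 lies far below the other lines at BNIP3 and within their range at 8 of the 10 neighbours.

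The listed genes were also set against the letters of the HIF core in their start regions. At least 1 window held a match in 5 of 6 listed genes called lower in L-540, in 7 of 7 called higher and in 38 of 40 called neither, among those with a RefSeq window. These counts take any window of a gene and are not directly comparable with the 48.4% of single windows.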

How the data were processed

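Total RNA of 7 HL cell lines was profiled on HG U133 Plus 2.0 arrays, 1 per line. Groups follow the sample titles. For HDLM-2 another label is spelled HDML-2. The authors corrected background by RMA and quantile normalized the arrays, with limma and affy (for both, version not given in the sources used here). While the methods speak of ratios to the sample mean, the deposited log2 values, which have 2 decimals, run from 1.99 to 14.17 and are uncentred levels. RMA pulls low signals together, so differences near background are understated. The number of arrays, 1 per line, limits precision. No test between lines was made, because no line has a replicate, and no p-value is given.

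The annotation provided with the data, which can be old, gave 1 gene symbol to 41097 probe sets, several to 1801 and none to 11777. For 41043 of the 41097 the gene identifier was found in RefSeq, and the symbol was taken from there whether or not it differed. Where several probe sets were given to a gene alone, that with the highest mean stood for it. Background per array was taken from 107 probe sets for olfactory receptors, at their 95th percentile. The technical spread came from 2438 genes with 5920 probe sets above background in all lines, and it can hold differences between transcripts. Python 3.11.15, pandas 2.3.3 and numpy 2.4.6 were used, and the procedure was tested on simulated data. The simulation had less spread than these arrays, and its shifts were larger than the calling rule and lay in genes well above background. It does not show how calls behave near background or near the rule. No value column was left out.

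The members, lists and rules were chosen with earlier results of these data known. Named were all members, up to 4 called genes per list with the largest L-540 difference plus PGK1, LDHA, PDK1, SLC2A3, P4HA1, KDM3A, DDIT4, ARNT, VHL and EGLN1, the 5 genes most like and most opposite to BNIP3, and its 5 neighbours on either side. GBE1, GPI, ANKRD37, BHLHE40, IGFBP3, FAM162A, HMOX1, FKBP8 and PHB2, and the marker genes given with values, were named after their values were seen. The count over members besides BNIP3 was planned for 9 and rests on 8, since no probe set was given to CA9 alone. The alternatives changed the probe set, scaling, reference, low values, background level, size of the difference and lines compared.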

Additional observations from a re-analysis of the deposited data

Results flagged for a closer look

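A line was picked out where its gap to the next one, as a share of the whole range, was above Dixon's critical value for 7 samples. BNIP3 was left out, since its level in L-540 had chosen the set. Chance alone gives about 1 in 20 such cases, and 4 were found among 24 measures. The second SLC2A1 probe set, 201249_at, was picked out in L-1236, at 5.65 against 3.66 in L-540, on the array whose background was itself picked out, at 5.59 against 4.86 in HDLM-2. The U-HO1 array was picked out for 18S ribosomal RNA, at 11.12 against 7.06 in L-540, and for the ACTB 3′ minus 5′ difference, at 2.11 against 0.54 in KM-H2.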

How the results depend on the processing

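Of 107 values recomputed under alternatives, 91 stayed within the technical spread or, for counts, within 1.5 times, and 16 moved. BNIP3 kept its direction under every alternative run for it. BNIP3 in L-540 lay 7.42 to 7.77 below the other lines when each was left out in turn, and at -6.28 when low values were lifted to background. The count of other members lower in L-540 was 0 with the mean of all probe sets and 0 without L-1236 and U-HO1 together, a setting added after seeing the data, and ran from 0 to 1 when single lines were left out. It was 0 without HDLM-2, L-1236, SUP-HD1 or U-HO1, because EPAS1 was then above background in fewer than 4 other lines. The count of other members higher was 0 without probe sets ending in _x_at or _s_at, which removes NDRG1. The median of the other members was -0.36 in that setting and -0.17 with values raised to background, beside 0.16. It was -0.02 against the mean of the other lines, and 0.03 to 0.34 with lines left out, so its sign changed with the setting. Without probe sets ending in _x_at or _s_at, 37 listed genes were tested instead of 57. Of these, 7 were lower and 4 higher in L-540, beside 7.22% and 10.4% of all genes. At a difference of 2, 4 listed genes were lower and 2 higher, beside 2.44% and 3.04%. In the main setting 6 were lower and 9 higher, so the direction with more calls changed with the setting. With lines left out, 5 to 9 listed genes were lower and 6 to 11 higher, of 56 or 57 tested. The shares of all genes were then 5.38% to 7.21% lower and 9.85% to 11.7% higher. The ranges of BNIP3, EPAS1, ADM and EGLN3 shrank to 7.02, 4.91, 1.39 and 1.10 with values raised to background. Signal over background limits ADM, EGLN3 and EPAS1. No paired analysis was possible because no line has more than 1 array.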
